A study of Mus musculus with 22 samples.

Results

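Tumours of mice given avelumab together with 2 µg NHS-muIL12 were compared with tumours of mice given an isotype control, across all genes of a NanoString immune panel. The 8 tumours, 4 of each group, were taken by their sample titles out of 22 tumours profiled in 6 groups. All were grown from EMT-6, a mouse mammary carcinoma line, placed orthotopically into the mammary fat pad. The hosts were BALB/c mice, an inbred strain with an intact immune system. Per the labels, the mice with both agents received avelumab, an antibody against PD-L1, at 200 µg into a vein on days 0, 3 and 6. They also received NHS-muIL12, which joins mouse interleukin-12 to an antibody that binds DNA and histones where tissue has died, at 2 µg under the skin on day 0. The isotype mice received 0 µg of both agents, and the identity of the isotype antibody is not given in the sources used here. Tissue was taken on day 6. The age of the mice and the day 6 order of injection and collection are likewise not given. The treated group is called combination 2 µg, and its tumours combination tumours unless the 10 µg dose is named. Other groups used below are combination 10 µg (avelumab at 200 µg with 10 µg NHS-muIL12, 4 mice), NHS-muIL12 2 µg alone (4 mice) and avelumab at 200 µg alone (3 mice). A group of NHS-muIL12 10 µg alone (3 mice) entered only the estimate of the spread. The series text speaks of 4 mice in each group, and the remaining mice are not analysed here.

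Interleukin-12 acts through a 2-chain receptor and Stat4 in T cells and natural killer cells and drives them to make interferon-gamma. Interferon-gamma signals in most cells of a tumour and raises the class II transactivator, the chains of MHC class II and class I, the immunoproteasome, guanylate binding proteins and the chemokines that bind Cxcr3. It also raises PD-L1, the ligand that restrains T cells through PD-1 and that avelumab blocks. This is general knowledge of the pathway and not a result of these data.

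The deposited values are signals on a linear scale for 770 genes, of which 20 are housekeeping genes and 750 were tested. Total signal ran from 337127 to 400275 in the 4 combination tumours and from 302582 to 354956 in the 4 isotype tumours. The housekeeping genes averaged 8.84 to 8.90 in log2 signal over all 8. The libraries differed at their dim end. Among the 300 tested genes with a mean signal under 50 over all 22 tumours, the median signal was 2.94 to 9.01 in combination tumours, against 30.1, 37.2, 0 and 12.5 in isotype tumours 1 to 4. Isotype replicates 1 and 2 thus stood apart from the other 6 tumours, and NHS-muIL12 2 µg replicate 3 and NHS-muIL12 10 µg replicate 3 were high in the same way. Values are therefore given with all mice and, for most gene lists and some dim genes, without these 4 libraries, which leaves 2 isotype mice. A dim gene with 1 change printed has it from all mice only. The median change of the 300 dim genes was -0.73 with all mice and 0.05 without the 4 libraries. The markers Epcam, Cdh1, Muc1, Egfr and Erbb2 of the labelled carcinoma were above 0 in all 8 tumours and did not pass the test, and Epcam read 29.9 to 67.9 in combination tumours and 40.7 to 62.6 in isotype tumours.

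Combination 2 µg tumours had higher signal of 6 of 10 MHC class II genes, 12 of 21 interferon-gamma response genes, 3 of 10 class I heavy chains and a set of leukocyte receptors, and lower signal of a few mast cell, neutrophil and vessel genes. In a limma fit of log2(signal + 1) with 1 mean for each of the 6 groups, 71 of 750 genes (9.47%) passed an adjusted p under 0.05, 58 higher (7.73%) and 13 lower (1.73%). The changes of the genes that rose ran from 0.36 to 4.12 on the log2 scale with a median of 1.32, and those of the genes that fell from -3.99 to -0.46. Here and below, log2 changes are on the log2(signal + 1) scale, which understates changes of dim genes, and carry the standard error of the fit. For 57 of the 58 genes every combination mouse lay above every isotype mouse, and for 10 of the 13 every combination mouse lay below. Over all tested genes, 97 (12.9%) lay wholly above and 31 (4.13%) wholly below. Of the genes called, 52 of the 58 higher and 7 of the 13 lower had a mean signal of at least 50 over all 22 tumours.

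The number of calls depended on single mice and on the scale. The fit was rerun 8 times, each time without 1 of the 8 mice, and 15 of the 71 genes kept their call each time. Those 15 were Cxcl9, Cxcl10, H2-Eb1, H2-Aa, H2-Ab1, Cd74, H2-Ea-ps, Psmb10, Cybb, Fcgr4, Il10ra, Itgb2, Klrk1, Pou2f2 and Tpsab1, the last being the one that fell. Leaving out combination mouse 1, 2, 3 or 4 gave 16, 74, 45 or 22 genes, and leaving out isotype mouse 1, 2, 3 or 4 gave 26, 19, 140 or 75. With the 4 libraries that are high at the dim end left out, 0 genes passed in limma, with 107 at an unadjusted p under 0.05 against 211 with all mice, while all 58 and all 13 genes kept their sign. Quantile normalization called 71 higher and 57 lower, and centring each library on its median called 43 higher and 24 lower. Centring moved the median change of all genes to -0.17, against -0.04 as deposited. The 300 genes with a mean under 50 had a median change of -0.73 with all mice and 0.05 without the 4 libraries, and the other 450 genes 0.12 and 0.11. The part of the dim-end difference in the called genes was not tested beyond these values.

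**Figure D1:**
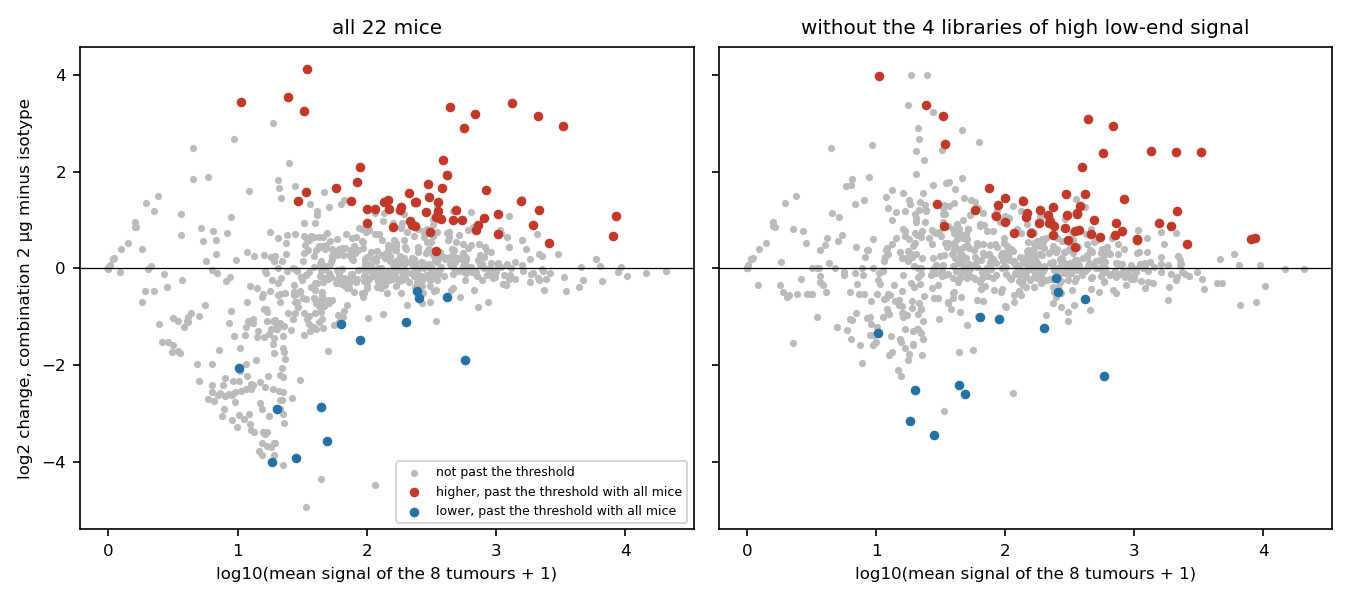
Change of each tested gene, combination 2 µg minus isotype in log2(signal + 1), against log10 of its mean signal plus 1 over the 8 tumours, with all 22 mice in the fit on the left and, on the right, with the 4 libraries that are high at the dim end left out. Red and blue points are the 58 higher and 13 lower genes past the threshold with all mice, and they keep their sign on the right, where the 300 genes with a mean under 50 over all 22 tumours have a median of 0.05 instead of -0.73.

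MHC class II chains present peptides to helper T cells, and Cd74 is the invariant chain that guides them. Of 10 class II genes tested, 6 rose and 0 fell, beside 7.73% higher and 1.73% lower over all genes. The median change was 2.54 (2.40 without the 4 libraries), against -0.04 over all genes tested. Cd74 had signals of 8311, 3019, 4317 and 7642 in combination tumours and 574, 409, 1244 and 822 in isotype tumours. H2-Aa, the alpha chain of I-A, read 5347, 1545, 3263 and 4935 in combination tumours and 324, 156, 738 and 553 in isotype tumours. In both genes the lowest combination tumour, replicate 2, stood above the highest isotype tumour, replicate 3. The mean of Cd74 was 5822 ± 2558 in combination tumours and 762 ± 363 in isotype tumours (SD, n = 4 each), a change of 2.94 ± 0.50 (fold 7.65, limma adjusted p = 0.00374). H2-Aa changed by 3.16 ± 0.55 (fold 8.94, adjusted p = 0.00374).

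The beta chain H2-Ab1 ranged from 404 to 1433 in combination tumours and from 52.3 to 190.2 in isotype tumours, a change of 2.91 ± 0.54. For H2-Eb1, the beta chain of I-E, the signals were 1832, 441, 961 and 1764 in combination tumours and 129, 77.9, 156 and 124 in isotype tumours, a change of 3.18 ± 0.56 (limma adjusted p = 0.00374). The I-E alpha chain, listed as H2-Ea-ps and now named H2-Ea, ranged from 932 to 3936 in combination tumours and from 51.2 to 506 in isotype tumours, a change of 3.43 ± 0.68. All 5 of these chains, Cd74 included, rose more than 7-fold and kept their call without any 1 mouse. H2-Dma, a chain of the peptide exchanger H2-M, rose by 1.37 ± 0.35, with 227 to 458 in combination tumours against 100.0 to 159 in isotype tumours. Ciita, the class II transactivator, read 43.1, 11.2, 22.2 and 67.02 in combination tumours and 21.1, 24.4, 0 and 2.63 in isotype tumours and overlapped between the groups. Its change was 2.18 ± 0.97 (limma adjusted p = 0.153) and 4.00 without the 4 libraries, isotype tumours 1 and 2 being the higher ones of their group. In bulk tumour RNA, more cells that carry a gene and more RNA of it in each cell cannot be told apart, here or below.

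Of 21 interferon-gamma response genes tested, 12 rose and 0 fell, beside 7.73% higher over all genes, and 20 had a change above 0. Every combination mouse lay above every isotype mouse in 16, beside 12.9% of all genes. The median change was 1.02 (1.14 without the 4 libraries). Cxcl9, a chemokine that draws Cxcr3-bearing T cells and natural killer cells, read 1365, 309, 591 and 936 in combination tumours and 55.5, 58.1, 165 and 39.9 in isotype tumours. Its mean was 800.4 ± 455 in combination tumours and 79.6 ± 57.3 in isotype tumours (SD, n = 4 each), a change of 3.34 ± 0.53 (fold 10.1, limma adjusted p = 0.00288), and 3.08 without the 4 libraries. The related ligand Cxcl10 read 659, 409, 517 and 722 in combination tumours and 141, 133, 258 and 204 in isotype tumours, and the third, Cxcl11, ranged from 103 to 194 in combination tumours and from 43.2 to 69.8 in isotype tumours. Cxcl10 changed by 1.66 ± 0.36 and Cxcl11 by 1.22 ± 0.33, so that all 3 ligands rose, in descending size from Cxcl9 to Cxcl11. Cxcr3, their receptor, read 20.5 to 59.1 in combination tumours and 21.3 to 80.1 in isotype tumours and did not pass the test (change 0.09 ± 0.61, adjusted p = 0.934).

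The guanylate binding protein Gbp5 had 507, 338, 324 and 669.8 in combination tumours and 139, 89.5, 185 and 123 in isotype tumours, a change of 1.75 ± 0.41. Gbp2b, of the same family, ranged from 2035 to 4124 in combination tumours and from 1160.0 to 1377 in isotype tumours. Both of these genes were higher in every combination tumour than in any isotype tumour. Cybb, the catalytic subunit of the phagocyte oxidase, rose by 1.94 ± 0.35, with 473 to 828 in combination tumours against 123 to 240.1 in isotype tumours. Irf1, a transcription factor induced by interferon-gamma, did not overlap between the groups, with 1040.2 to 1841 in combination tumours and 706 to 819 in isotype tumours, and narrowly missed the threshold (change 0.80 ± 0.25, adjusted p = 0.0504). Socs1, the feedback inhibitor of the pathway, had a log2 difference of 0.98 ± 0.37 (adjusted p = 0.0995), also without overlap. Ido1, which degrades tryptophan, is also induced by interferon-gamma and had 4.11 to 12.7 in combination tumours and 3.06 to 72.1 in isotype tumours. Its change of -1.39 ± 1.10 did not pass (adjusted p = 0.417) and was 0.21 without the 4 libraries.

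**Figure D2:**
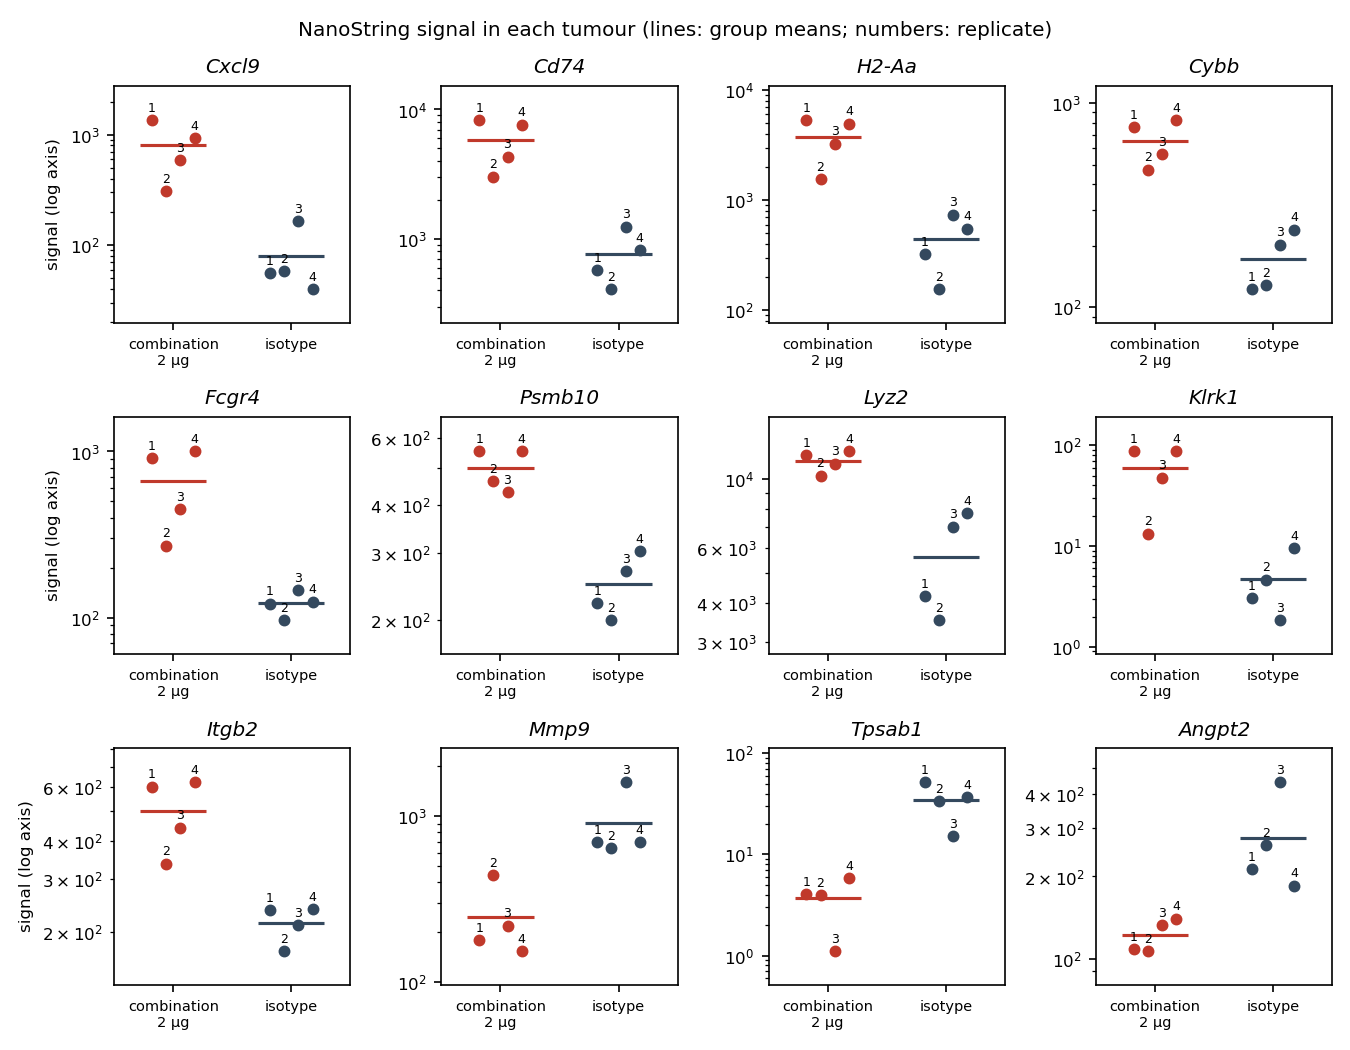
NanoString signal (log axis) of 12 genes in each of the 4 combination 2 µg and 4 isotype tumours, numbered by replicate, with lines at the group means. In the 9 genes that rose the lowest combination tumour lies above the highest isotype tumour, and in Mmp9, Tpsab1 and Angpt2 the order is the opposite.

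Sequences just before the start of 4 of these genes are shown because they hold letters to which interferon regulatory factors and the class II factors are known to bind in general. They are the 250 bases before the RefSeq start, from RefSeq on GRCm38.p6, 5′ to 3′ on the gene's strand, at chr17:34287824-34288073 (minus strand) for H2-Aa, chr17:34305617-34305866 (plus) for H2-Eb1, chr3:142496684-142496933 (plus) for Gbp5 and chr1:171018676-171018925 (plus) for Fcgr4, an Fc gamma receptor gene described below. Capitals mark matches, on either strand, to 3 motifs: TTCNNNGAA (the gamma-activated site), an interferon-stimulated element, written GAAA, then any 2 bases, then GAAA again, and the CCAAT box.
H2-Aa: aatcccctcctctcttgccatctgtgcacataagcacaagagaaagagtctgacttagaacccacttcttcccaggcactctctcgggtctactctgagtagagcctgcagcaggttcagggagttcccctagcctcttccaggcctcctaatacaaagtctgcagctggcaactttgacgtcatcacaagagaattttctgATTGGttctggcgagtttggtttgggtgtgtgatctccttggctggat
H2-Eb1: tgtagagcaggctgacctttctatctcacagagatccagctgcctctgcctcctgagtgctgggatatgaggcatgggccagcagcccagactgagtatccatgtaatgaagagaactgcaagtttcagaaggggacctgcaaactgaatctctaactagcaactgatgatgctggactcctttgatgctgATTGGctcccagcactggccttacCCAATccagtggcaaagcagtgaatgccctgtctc
Gbp5: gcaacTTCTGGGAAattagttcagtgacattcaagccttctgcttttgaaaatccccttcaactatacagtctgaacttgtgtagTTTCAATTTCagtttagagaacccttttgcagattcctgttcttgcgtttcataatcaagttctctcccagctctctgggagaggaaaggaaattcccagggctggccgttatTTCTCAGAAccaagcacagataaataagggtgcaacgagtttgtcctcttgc
Fcgr4: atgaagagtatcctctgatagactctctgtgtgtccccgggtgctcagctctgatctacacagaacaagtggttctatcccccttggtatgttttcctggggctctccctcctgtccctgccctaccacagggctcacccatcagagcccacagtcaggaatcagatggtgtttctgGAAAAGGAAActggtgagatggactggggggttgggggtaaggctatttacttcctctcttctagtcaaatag
H2-Aa had 1 match, an ATTGG at 48 bases before the start, and H2-Eb1 had 2, at 59 and 35. Gbp5 had gamma-activated letters at 245 and 52 bases before the start and an interferon-stimulated match at 165, and Fcgr4 had an interferon-stimulated match at 73. None of these matches overlapped another. Of the 58 genes that rose, 41 had a promoter in the table, and 9 of these genes (22%) held the interferon-stimulated letters. The share was 8.48% of the 554 tested genes with a promoter and 2.98% of all 32851 promoters. A gene counted if any of its promoters matched, whereas the share over 32851 is per promoter. That last share is therefore not like for like, here and for the other motifs. Gamma-activated letters were in 6 of the 41 (14.6%), against 12.8% and 7.02%, and CCAAT in 18 (43.9%), against 35.6% and 33.8%. Of the 13 genes that fell, 7 had a promoter, and 0 of these held either interferon motif, while CCAAT was in 4 (57.1%). These shares are descriptions of letters, and binding was not measured.

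Of 10 class I heavy chain genes 3 rose and 0 fell, beside 7.73% higher and 1.73% lower over all genes. A change below 0 that did not pass was seen in 4, and the list had a median change of 0.43 (0.61 without the 4 libraries). H2-K1 read 1271, 1219.6, 1113 and 1562 in combination tumours and 760.4, 699.7, 913 and 774 in isotype tumours, a change of 0.71 ± 0.16 (limma adjusted p = 0.0152). H2-D1, at the highest signal of the class, ranged from 8706 to 12212 in combination tumours and from 5422 to 7041 in isotype tumours, and changed by 0.66 ± 0.16. H2-T23, which encodes the Qa-1 molecule read by natural killer receptors, changed by 0.89 ± 0.26. None of the 3 overlapped between the groups. Among the dim members, H2-Q1 had a log2 difference of -2.55 ± 1.73, H2-Q10 of -2.07 ± 0.75 and Cd1d2, a lipid-presenting relative, of -1.08 ± 1.06, none past the threshold. Without the 4 libraries these 3 values were 0.64, -1.33 and 0.78.

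Of 14 genes of the machinery that makes and loads peptides, 7 rose and 0 fell, beside 7.73% higher over all genes. Every combination mouse lay above every isotype mouse in 11 of them, beside 12.9% of all genes. Psmb10, an immunoproteasome subunit, read 553, 462, 432 and 554 in combination tumours and 221, 199.9, 268 and 303 in isotype tumours. With 500.3 ± 62.7 in combination tumours and 248 ± 46.2 in isotype tumours (SD, n = 4 each) as means, it changed by 1.02 ± 0.16 (fold 2.03, limma adjusted p = 0.00288). The other subunits Psmb9 and Psmb8 rose by 0.80 ± 0.19 and 0.53 ± 0.15, and Tap1, which carries peptides into the endoplasmic reticulum, by 0.90 ± 0.21. Ctss, the protease that trims the invariant chain, ranged from 1749 to 2836 in combination tumours and from 496 to 1242 in isotype tumours and rose by 1.39 ± 0.37.

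Of 27 type I interferon genes tested, 2 rose and 0 fell, with 7.73% of all genes higher. No overlap above isotype was seen in 11, beside 12.9% of all genes, and the median change was 0.50 (0.44 without the 4 libraries). Zbp1, a sensor of Z-form nucleic acids, read 748, 444, 515 and 1062 in combination tumours and 264, 234, 379.9 and 277 in isotype tumours, a change of 1.20 ± 0.32. Ifi44 rose by 1.05 ± 0.30, with 898 to 1525 in combination tumours against 405 to 683 in isotype tumours. Irf7, a driver of type I interferon genes, read 288 to 587 in combination tumours and 170.1 to 287 in isotype tumours and did not pass (change 0.82 ± 0.29, adjusted p = 0.0839). Isg15, a ubiquitin-like protein of this response, had a log2 difference of 0.50 ± 0.21 and Ifit3 of 0.24 ± 0.39, neither past the threshold, and Mx1 was listed at 0 in all 8 tumours. Among interferon-inducible genes in none of the lists, Ifi44l rose by 1.21 ± 0.36, Irgm2, an immunity-related GTPase, by 1.28 ± 0.38, Herc6, a ligase of Isg15 in the mouse, by 0.87 ± 0.24 and the transcription factor Irf5 by 0.87 ± 0.22.

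The interleukin-12 axis itself held no gene past the threshold. Of 17 tested genes, 0 rose and 0 fell in limma, with a median change of 0 (0.24 without the 4 libraries), and 6 of them had a mean signal of at least 50. Ifng read 0, 0, 1.104 and 11.8 in combination tumours and 34.2, 29.1, 0 and 11.00 in isotype tumours, with 2 combination tumours and 1 isotype tumour at 0. Its change was -2.22 ± 1.43 (adjusted p = 0.312), and -0.61 without the 4 libraries. Il12rb2, whose chain passes the interleukin-12 signal on to Stat4, gave 0 in each of the 4 isotype tumours and read 1.89, 0.867, 0.226 and 8.36 in combination tumours (limma adjusted p = 0.163), so no fold is given. The other chain, Il12rb1, read 43.3 to 96.8 in combination tumours and 34.7 to 78.4 in isotype tumours (change 0.42 ± 0.35). Both receptor chains thus failed the test, and only Il12rb2 was without overlap. Il23a and Il23r, a cytokine chain and a receptor of the related interleukin-23, had log2 differences of -3.38 ± 1.39 and -2.57 ± 1.15, and -1.26 and -0.54 without the 4 libraries, all 4 combination tumours being at 0 for Il23r. Stat4 and Tbx21, the transcription factors that interleukin-12 acts through, had log2 differences of -0.10 ± 0.97 and -0.51 ± 1.04, and 0.68 and 1.56 without the 4 libraries. Ifng is a dim gene here, at 11.8 at most in combination tumours. How its signal relates to the 12 interferon-gamma response genes called was not tested.

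PD-L1, the target of avelumab, did not pass the test although its groups did not overlap. Its gene Cd274 read 529, 265, 396 and 836 in combination tumours and 206, 215, 225 and 129 in isotype tumours. The means were 507 ± 245 in combination tumours and 194 ± 44.03 in isotype tumours (SD, n = 4 each), and the change was 1.29 ± 0.47 (limma adjusted p = 0.0921), or 1.44 without the 4 libraries. Pdcd1, which encodes PD-1, read 18.5, 8.12, 7.25 and 16.01 in combination tumours and 113, 82.5, 3.06 and 7.19 in isotype tumours. Isotype tumours 1 and 2, which are high at the dim end, were the only ones of the 8 above 20. The change of Pdcd1 was -0.92 ± 1.32 and that of Pdcd1lg2, the gene of PD-L2, -0.38 ± 1.38, neither past the threshold, and both were above 0 without the 4 libraries, at 1.13 and 1.79.

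Of 15 other checkpoint genes 1 rose, beside 7.73% higher over all genes tested. This was Tnfrsf14, the herpesvirus entry mediator that binds Btla and Cd160. It read 251, 135, 168 and 277 in combination tumours and 96.5, 65.1, 79.6 and 102 in isotype tumours, a change of 1.23 ± 0.28 (limma adjusted p = 0.0159). The median of the list was -0.37, and 0.11 without the 4 libraries. Havcr2, the gene of TIM-3, had a log2 difference of -2.11 ± 1.19 and Cd96, a receptor of T cells and natural killer cells, of -2.73 ± 1.47, and neither passed.

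T cell genes gave no call. Of 22 genes 0 passed in limma, and the median change was -0.22 with all mice and 0.77 without the 4 libraries. Cd3e, a chain of the T cell receptor complex, read 30.8, 16.4, 42.4 and 27.9 in combination tumours and 30.9, 37.2, 1.84 and 26.2 in isotype tumours. Cd8a read 6.96, 9.15, 5.496 and 11.8 in combination tumours and 1.39, 23.3, 0 and 4.91 in isotype tumours and Cd4 0 to 25.7 in combination tumours and 0 to 53.5 in isotype tumours. Isotype tumour 3 was the lowest of the 8 for Cd3e, and the groups overlapped for all 3 genes. Changes were 0.72 ± 0.78 for Cd3e, 1.07 ± 1.36 for Cd8a and -0.24 ± 1.43 for Cd4, and 1.72, 1.90 and 1.34 without the 4 libraries. The 2 members furthest below 0, Cd8b1 at -2.72 ± 1.57 and Cd96, as above, stood at -0.17 and -0.84 without them, and Cd2, an adhesion receptor, at 0.95 against -1.21 ± 1.55. The summed signal of the list was 538 to 908 in combination tumours and 720 to 1267 in isotype tumours, and no member was at 0 in all 8 tumours. A change in T cell genes was not detectable at this signal.

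Cytotoxic effector genes likewise gave 0 of 10 calls. Gzma, a granzyme, read 82.2, 23.6, 74.01 and 100.2 in combination tumours and 22.7, 10.5, 61.4 and 26.2 in isotype tumours, a change of 1.27 ± 0.49 (limma adjusted p = 0.105). Gzmb read 19.98, 8.12, 27.5 and 39.8 in combination tumours and 29.3, 41.9, 10.3 and 5.67 in isotype tumours, with a log2 difference of 0.29 ± 1.00, and Prf1, the pore-forming perforin, had a log2 difference of 0.38 ± 0.70. The groups overlapped in each of the 3. Gzmm was at 0 in every combination tumour and between 0 and 30.9 in isotype tumours, a difference of -2.40 ± 1.16, and 0.00 without the 4 libraries.

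Some genes of the lymphocyte lists did rise. Klrk1, the gene of NKG2D, an activating receptor of natural killer and CD8 T cells, read 87.3, 13.3, 47.7 and 88.3 in combination tumours and 3.03, 4.66, 1.84 and 9.48 in isotype tumours. It changed by 3.24 ± 0.66 (fold 9.48, limma adjusted p = 0.00757), and by 3.15 without the 4 libraries. It was 1 of 2 genes of 23 in the natural killer list that rose, beside 7.73% higher over all genes tested. The other was Klra2, a receptor of the Ly49 family, at 1.41 ± 0.35. Which cells carried its RNA was not measured, so its rise is not a measure of natural killer cells. Ncr1, which marks natural killer cells, read 16.4 to 38.8 in combination tumours and 12.8 to 44.02 in isotype tumours and did not pass (change -0.35 ± 0.37). The list's median was -0.08, and 0.22 without the 4 libraries. The dim members Klrb1c and Klra3 had log2 differences of -3.60 ± 1.42 and -2.60 ± 1.17, and -1.29 and -1.03 without them, neither past the threshold. The Ly49 and other lectin-like receptor genes are close copies of each other, and whether probes can tell them apart was not tested.

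Of 9 genes of the SLAM family, receptors that leukocytes use to recognise one another, and its adaptors, 4 rose and 0 fell. Over all genes tested 7.73% were higher and 1.73% lower. The list had a median change of 1.40 (1.26 without the 4 libraries). Slamf7 had the largest rise of the comparison, 4.12 ± 1.09, with 80.7, 12.3, 78.4 and 79.8 in combination tumours and 0, 0, 9.13 and 6.43 in isotype tumours. Combination tumour 2 was far below the other 3, and the call was lost in 5 of the 8 fits that left out a mouse. Slamf6 read 19.98, 7.08, 38.00 and 8.36 in combination tumours and 0, 3.498, 0 and 0 in isotype tumours, a change of 3.44 ± 0.86, with 3 isotype tumours at 0. Cd48, the ligand of Cd244, rose by 1.78 ± 0.52 and Ly9 by 1.40 ± 0.42. Sh2d1a, the adaptor of these receptors in T and natural killer cells, was listed at 0 in all isotype tumours and read 0 to 10.9 in combination tumours (limma adjusted p = 0.0527).

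In the other lymphocyte lists single genes rose, beside 7.73% higher over all genes tested. Il2ra, the high-affinity chain of the interleukin-2 receptor, read 48.9, 46.4, 52.9 and 42.4 in combination tumours and 6.31, 12.8, 18.9 and 33.8 in isotype tumours and was the only one of 10 regulatory T cell genes and of 17 common gamma chain genes to pass (change 1.58 ± 0.47). Foxp3, which defines regulatory T cells, was listed at 0 in all isotype tumours and read at most 2.86 in combination tumours (adjusted p = 0.373). The regulatory list had a median of -0.88, and 0.07 without the 4 libraries, with Ccr4 at -3.62 ± 1.42 and Tnfrsf18 at -1.98 ± 1.18, not past the threshold. The common gamma chain list had a median of 0.20 (0.13 without the 4 libraries). In it the T cell cytokine genes Il21 at -3.86 ± 1.38, Il4 at -3.21 ± 1.31 and Il9 at -3.02 ± 1.60 did not pass, and Il21 and Il4 were at 0 in every combination tumour. Pou2f2, the gene of the B cell transcription factor Oct-2, which is also made outside B cells, read 45.3, 29.9, 63.5 and 27.1 in combination tumours and 0, 8.15, 0 and 14.04 in isotype tumours, a change of 3.55 ± 0.66 (limma adjusted p = 0.00426). It was 1 of 19 B cell genes called. Ms4a1, the gene of CD20, read 85.8, 3.97, 163 and 9.21 in combination tumours and 35.8, 48.8, 6.703 and 7.19 in isotype tumours, high in combination tumours 1 and 3 only. The B cell list had a median of 0.28, and 1.37 without the 4 libraries. Its members Tnfrsf17 at -3.03 ± 1.24 and Fcer2a at -2.27 ± 1.15 were near 0 signal in every combination tumour.

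Single leukocyte and macrophage genes of high signal rose. Ptprc, the gene of the leukocyte antigen CD45, read 533, 236, 433 and 399 in combination tumours and 155, 115, 225 and 205 in isotype tumours, a change of 1.17 ± 0.32 (limma adjusted p = 0.032). Lyz2, the lysozyme of macrophages and neutrophils and among the brightest genes, read 11926, 10258, 11187 and 12309 in combination tumours and 4213, 3529, 7038 and 7779 in isotype tumours. It changed by 1.09 ± 0.32, and by 0.62 without the 4 libraries, isotype tumours 1 and 2 being its lowest. Of 30 macrophage genes 4 rose and 0 fell, beside 7.73% higher over all genes, with a median of 0.58 (0.38 without the 4 libraries). They were Lyz2, C1qa, the first component of complement, at 1.13 ± 0.34, Cd36, a scavenger and fatty acid receptor, at 1.47 ± 0.42 and Fcgr1 at 1.38 ± 0.35. Csf1r and Cd68, which mark the lineage, did not pass (changes 0.66 ± 0.31 and 0.51 ± 0.25), and Adgre1, listed as Emr1, came near it at 0.91 ± 0.29 (adjusted p = 0.0527). Chil3, a chitinase-like protein, had a log2 difference of -1.70 ± 1.41, and 0.49 without the 4 libraries. The list summed to 28450 to 34777 in combination tumours and 14878 to 24492 in isotype tumours, without overlap. Lyz2 alone made up 10258 to 12309 and 3529 to 7779 of these sums, which weigh bright genes most. The part of the list in the class II and interferon-gamma changes was not tested.

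Receptors for antibody held 3 calls of 5, all higher, beside 7.73% higher over all genes tested. Fcgr4, which binds mouse IgG2 antibodies, read 915, 271, 447 and 1008 in combination tumours and 121, 96.5, 146 and 124 in isotype tumours, a change of 2.25 ± 0.46 (fold 4.76, limma adjusted p = 0.00757). Fcgr1, the high-affinity receptor, ranged from 359 to 714 in combination tumours and from 130.2 to 294 in isotype tumours, and Fcer1g, the signalling chain both share, rose by 1.01 ± 0.31. The inhibitory receptor Fcgr2b had a log2 difference of 0.58 ± 0.29, with overlap, and did not pass. Il10ra, the receptor of interleukin-10, read 163, 78.5, 121 and 195 in combination tumours and 17.8, 16.3, 41.95 and 65.8 in isotype tumours and rose by 2.10 ± 0.43 (limma adjusted p = 0.00757), the only call among 17 genes of the interleukin-10 and interleukin-6 families. Il10 itself was listed at 0 in all combination tumours and in isotype tumours 3 and 4. That list had a median of -0.35 (-0.09 without the 4 libraries), with Il19 at -3.78 ± 1.35 and Il6 at -1.13 ± 0.67, not past the threshold. Its 1 call of 17 stands beside 7.73% higher over all genes tested.

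Adhesion and recruitment genes of leukocytes were called too. Of 14 integrin genes 3 rose and 2 fell, beside 7.73% higher and 1.73% lower over all genes, and the falls are described below. The rises were chains of leukocytes: Itgb2, the shared beta chain, Itgal, its partner in LFA-1, and Itga4. Itgb2 read 602, 336, 442 and 625 in combination tumours and 236, 173, 211 and 238 in isotype tumours. Changes were 1.19 ± 0.24 for Itgb2, 1.37 ± 0.32 for Itgal and 1.39 ± 0.37 for Itga4. Itgax, a chain of dendritic cells and macrophages, read 18.5, 10.2, 15.2 and 13.5 in combination tumours and 0, 3.498, 0 and 5.67 in isotype tumours and did not pass (change 2.68 ± 0.92, adjusted p = 0.0715) although it did not overlap. Selplg, the ligand of P-selectin, rose by 0.89 ± 0.24. Of 21 genes of lymphocyte chemokines and receptors 5 rose, beside the same 7.73% higher over all genes. Among them were Cxcl9, Cxcl10, Cxcl11 and Cxcl16 at 1.00 ± 0.29, and the list median was 0.09 (0.71 without the 4 libraries). Cxcl13, a B cell chemokine in the same list, ranged from 0 to 59.1 in combination tumours, with 1 isotype tumour at 15.1 and 3 at 0, and did not pass (change 3.00 ± 1.43). Of 12 monocyte chemokine and growth factor genes 0 passed in limma. Ccl8 read 775 to 3832 in combination tumours and 229 to 1306 in isotype tumours and Ccr2, the receptor of inflammatory monocytes, 433 to 861 in combination tumours and 133 to 515 in isotype tumours, with changes of 1.43 ± 0.65 and 1.19 ± 0.45, and Csf2, the gene of GM-CSF, had a log2 difference of -1.89 ± 1.12.

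Among sensors and costimulation, Tlr8 rose by 1.23 ± 0.38 and the pair Ly86 and Cd180, which form a receptor complex of B cells and myeloid cells, by 1.38 ± 0.36 and 0.98 ± 0.28, 3 of 21 genes of the Toll-like receptor list (median 0.13, and 0.21 without the 4 libraries). Tlr9 had a log2 difference of 1.18 ± 0.49 and did not pass. Cd86, the ligand of Cd28 and Ctla4, read 159, 97.2, 129 and 138 in combination tumours and 75.2, 61.6, 65.05 and 66.6 in isotype tumours and was 1 of 17 dendritic cell and costimulation genes to rise (change 0.93 ± 0.27). That list had a median of -0.52, and 0.43 without the 4 libraries, with CD209e at -2.91 ± 1.42 and Lamp3 at -3.70 ± 1.48, both dim and not past the threshold. Over all genes tested 7.73% were higher, a share to set beside 3 of 21, 1 of 17 and, in the next list, 2 of 31. In the complement list 2 of 31 genes rose, C1qa and Cfb, factor B of the alternative pathway, at 1.56 ± 0.44. That list had a median of 0.24 (0.21 without the 4 libraries). The dim members Mbl2, C8b and C8a, made mainly in the liver, had log2 differences of -3.85 ± 1.30, -3.05 ± 1.34 and -2.91 ± 1.20, not past the threshold. The remaining rises, in none of the lists, were Lyn, a Src-family kinase of leukocytes, at 0.74 ± 0.18, Mapkapk2, a kinase downstream of p38, at 0.36 ± 0.10 and Cyfip2, a regulator of actin, at 1.66 ± 0.45.

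**Figure D3:**
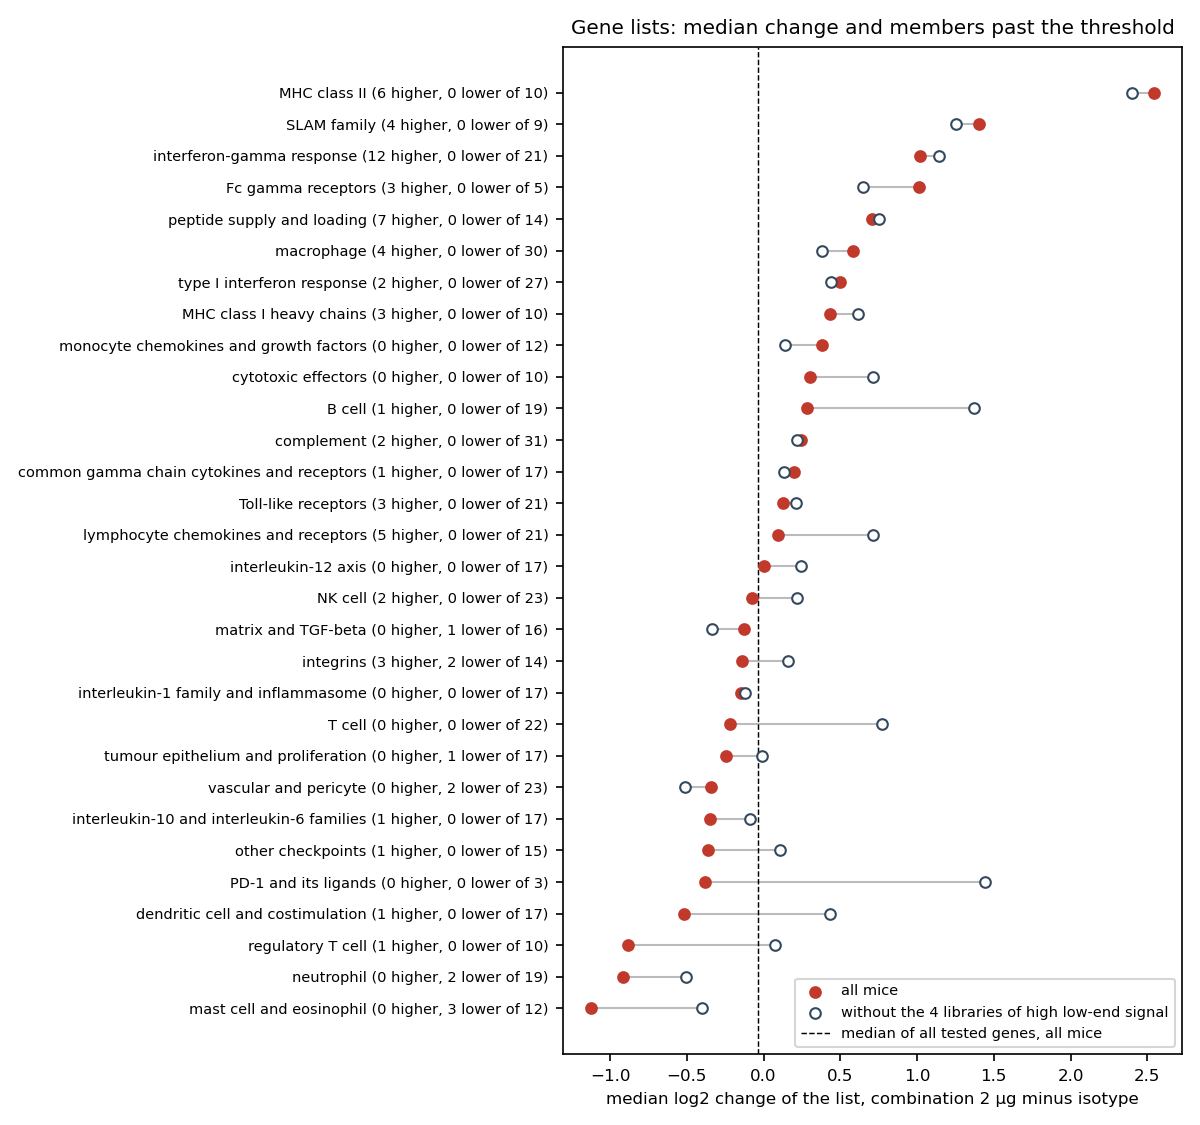
Median log2 change, combination 2 µg minus isotype, of each of 30 gene lists with all mice (filled) and with the 4 libraries that are high at the dim end left out (open), with the numbers of members past the threshold in each direction beside the name. MHC class II stands furthest to the right at 2.54 and 2.40, while lists of dim genes such as T cell genes change sides, from -0.22 to 0.77.

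Of 12 genes of mast cells and eosinophils tested, 3 fell and 0 rose, beside 1.73% lower over all genes. A change above 0 that did not pass was seen in 4. The list had a median of -1.12 with all mice and -0.40 without the 4 libraries. Tpsab1, a tryptase of mast cell granules, read 4.07, 3.97, 1.104 and 5.81 in combination tumours and 52.2, 33.7, 15.2 and 36.9 in isotype tumours. Its mean was 3.74 ± 1.95 in combination tumours and 34.5 ± 15.2 in isotype tumours (SD, n = 4 each), a change of -2.90 ± 0.57 (limma adjusted p = 0.00709), and -2.51 without the 4 libraries. Cma1, a mast cell chymase, read 2.62, 0, 16.9 and 16.9 in combination tumours and 178, 101, 35.9 and 32.3 in isotype tumours, a change of -3.56 ± 0.96. The eotaxin receptor Ccr3 read 0, 0, 5.496 and 0.706 in combination tumours and 50.6, 51.2, 11.6 and 20.1 in isotype tumours, a change of -3.99 ± 1.16. All 3 were lower in every combination tumour than in any isotype tumour, at signals where isotype tumours 1 and 2 are high in general, and their changes without the 4 libraries were -2.59 for Cma1 and -3.16 for Ccr3. The list summed to 175 to 341 in combination tumours and 318 to 503 in isotype tumours, with overlap.

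Of 19 neutrophil genes 2 fell and 0 rose, beside 1.73% lower over all genes, with a median of -0.92 (-0.50 without the 4 libraries). Wholly below isotype lay 5 of them, beside 4.13% of all genes. Mmp9, a gelatinase stored by neutrophils and made by macrophages and tumour cells, read 178, 439, 219 and 154 in combination tumours and 693, 640.5, 1605 and 699 in isotype tumours. It changed by -1.89 ± 0.57 (limma adjusted p = 0.043) and -2.22 without the 4 libraries, and the call was lost in 7 of the 8 fits without 1 mouse. Mpo, the myeloperoxidase, read 5.51, 27.8, 1.104 and 20.3 in combination tumours and 94.8, 94.2, 44.4 and 55.1 in isotype tumours, a change of -2.86 ± 0.77. The neutrophil chemokine Cxcl1, with 46.4 to 88.9 in combination tumours against 108 to 167 in isotype tumours, and Il1b, with 181 to 261 in combination tumours against 317 to 743 in isotype tumours, also lay wholly below isotype but did not pass (changes -1.03 ± 0.35 and -1.08 ± 0.41). S100a8, an abundant neutrophil gene, had a log2 difference of -0.80 ± 0.40 and did not pass. Elane and Cxcr1, both near 0 signal in combination tumours, had log2 differences of -3.01 ± 1.25 and -2.69 ± 1.16, and -0.84 and -1.28 without the 4 libraries. In the interleukin-1 and inflammasome list 0 of 17 genes passed in limma (median -0.15, and -0.12 without the 4 libraries), with Pycard, the adaptor ASC, at -2.56 ± 1.10 and the sensor Nod2 at -1.16 ± 0.71.

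Of 23 vascular and pericyte genes 2 fell and 0 rose, beside 1.73% lower over all genes, with a median of -0.34 (-0.51 without the 4 libraries). Angpt2, which loosens vessels through the receptor Tie2, read 108, 106, 133 and 140.1 in combination tumours and 213, 260.4, 444 and 185 in isotype tumours, a change of -1.10 ± 0.27 (limma adjusted p = 0.0207). Dll4, a Notch ligand of sprouting vessels, ranged from 28.7 to 43.3 in combination tumours and from 54.4 to 105 in isotype tumours, a change of -1.16 ± 0.30. Pecam1, the general marker of endothelium, read 164 to 257 in combination tumours and 165 to 429.7 in isotype tumours, with overlap, and did not pass (change -0.28 ± 0.26), and Vegfa, the growth factor of vessels, had a log2 difference of -0.34 ± 0.16. Cspg4 at -1.29 ± 0.67, Lyve1 at -1.17 ± 0.78 and Sele at -1.72 ± 0.93 did not pass either. In the matrix and TGF-beta list, where Mmp9 was the 1 call of 16 (median -0.13, and -0.33 without the 4 libraries), Thbs1 and Col4a1 had log2 differences of -0.47 ± 0.27 and -0.44 ± 0.32.

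The other falls were integrins, a receptor kinase and signalling genes. Itga6, the laminin-binding alpha 6 chain found on epithelium and tumour cells, read 171, 222, 205 and 201 in combination tumours and 349, 323, 277 and 281 in isotype tumours, a change of -0.62 ± 0.15 (limma adjusted p = 0.0173). Itgb3, a chain of platelets, vessels and macrophages, read 41.7, 39.2, 40.6 and 50.02 in combination tumours and 175, 151, 161 and 49.1 in isotype tumours, a change of -1.47 ± 0.38, with isotype tumour 4 inside the range of combination tumours. Its platelet partner Itga2b had a log2 difference of -2.49 ± 1.11, and -0.56 without the 4 libraries, and did not pass. The integrin list thus had 3 rises and 2 falls, and a median of -0.14 (0.16 without the 4 libraries). Mst1r, the RON receptor of epithelial cells and macrophages, read 1.17, 8.12, 0 and 4.11 in combination tumours and 83.4, 51.2, 46.8 and 23.9 in isotype tumours, a change of -3.92 ± 0.88 (limma adjusted p = 0.0152). It was the 1 call among 17 tumour epithelium and proliferation genes, beside 1.73% lower over all genes (list median -0.24, and -0.01 without the 4 libraries). In that list Cdk1 and Hras had log2 differences of -0.91 ± 0.71 and -0.83 ± 1.33, and 0.21 and 1.20 without the 4 libraries. Jun, of the AP-1 factor, read 342, 354, 297 and 324 in combination tumours and 528, 449, 597 and 429.6 in isotype tumours, a change of -0.59 ± 0.18. Tab1, an activator of the kinase TAK1, changed by -0.46 ± 0.14, with 193 to 225 in combination tumours and 215 to 367 in isotype tumours. Elk1, a transcription factor switched on by MAP kinases, changed by -2.05 ± 0.52, at no more than 6.38 in combination tumours and 4.91 to 25.6 in isotype tumours. Tab1 and Elk1 overlapped between the groups, and Jun did not.

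Signals of the genes that rose varied among the 4 combination tumours and among the 4 isotype tumours. Among the 58 genes that rose, combination tumour 2 had the lowest signal of its group in 41 and the highest in 0, while tumour 4 had the highest in 33 and tumour 1 in 19. Cxcl9 in tumour 2 was 309, against 591 to 1365 in the other 3, and Klrk1 13.3, against 47.7 to 88.3. Among isotype tumours, tumour 2 had the lowest signal in 41 of the 58 and tumours 3 and 4 the highest in 23 and 28. Tumour 2 of each group only shares a number, and the labels do not pair mice.

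Set against its single agents, combination 2 µg was lower in Itga6 and Tpsab1 than NHS-muIL12 2 µg alone, and higher in class II genes and Cxcl9 than avelumab alone. These comparisons all share the 4 combination mice, so their values are set side by side with no measure of likeness. Against NHS-muIL12 2 µg alone, 2 of 750 genes (0.267%) passed, both lower, with 83 at an unadjusted p under 0.05. Itga6 averaged 200.0 ± 21.3 in combination tumours and 348 ± 46.1 with NHS-muIL12 2 µg (SD, n = 4 each), a difference of -0.79 ± 0.15 (limma adjusted p = 0.0327). Tpsab1 averaged 3.74 ± 1.95 in combination tumours and 34.9 ± 22.5 with NHS-muIL12 2 µg (SD, n = 4 each), a difference of -2.82 ± 0.57 (adjusted p = 0.0447). Leaving out any 1 of these 8 mice gave 0 or 1 gene. Both calls were lost with a replicate block (adjusted p = 0.0647 for each), with only the 2 groups compared (0.260 for each) and without the 4 libraries that are high at the dim end (0.218 for each), while the differences were -0.79 and -2.82 in the first pair of fits and -0.79 and -2.45 in the last. Cxcl9 averaged 800 ± 455 in combination tumours and 236 ± 95.3 with NHS-muIL12 alone, a difference of 1.65 ± 0.53 (95% interval 0.54 to 2.76) that did not pass (adjusted p = 0.273). Cd74 differed by 1.05 ± 0.50 (95% interval -0.01 to 2.10) and Gbp5 by 1.50 ± 0.41 (95% interval 0.63 to 2.36), not past the adjusted threshold either. Whether avelumab added to these genes at this dose was thus not settled by the test.

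Against avelumab alone, 81 of 750 genes (10.8%) passed, 72 higher (9.6%) and 9 lower (1.2%), with 190 at an unadjusted p under 0.05. The largest rises were Slamf7 at 5.28 ± 1.17, C6, a late complement component, at 3.47 ± 1.00, and Cxcl9 at 3.08 ± 0.57 (limma adjusted p = 0.0121). H2-Eb1 and H2-Aa followed at 3.08 ± 0.60 and 3.06 ± 0.60. Cxcl9 averaged 800 ± 455 in combination tumours (SD, n = 4) and 83.3 ± 22.4 in avelumab tumours (SD, n = 3), which did not overlap. The largest falls were Tpsab1 at -2.30 ± 0.62, Aire, a regulator of self-antigens in the thymus and very dim here, at -2.24 ± 0.67, and Elk1 at -1.98 ± 0.57. Fos, the partner of Jun, and F2rl1, a receptor cleaved by proteases such as mast cell tryptase, followed at -1.03 ± 0.30 and -1.02 ± 0.31. Calls ranged from 0 to 95 when 1 mouse was left out, with 0 without avelumab replicate 2 or 3 or combination replicate 1 or 4 and 45 without combination replicate 3. Leaving out the 4 libraries that are high at the dim end gave 47 genes, and with each library centred on its median 24 higher and 35 lower, against 39 higher and 33 lower with quantile normalization.

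**Figure D4:**
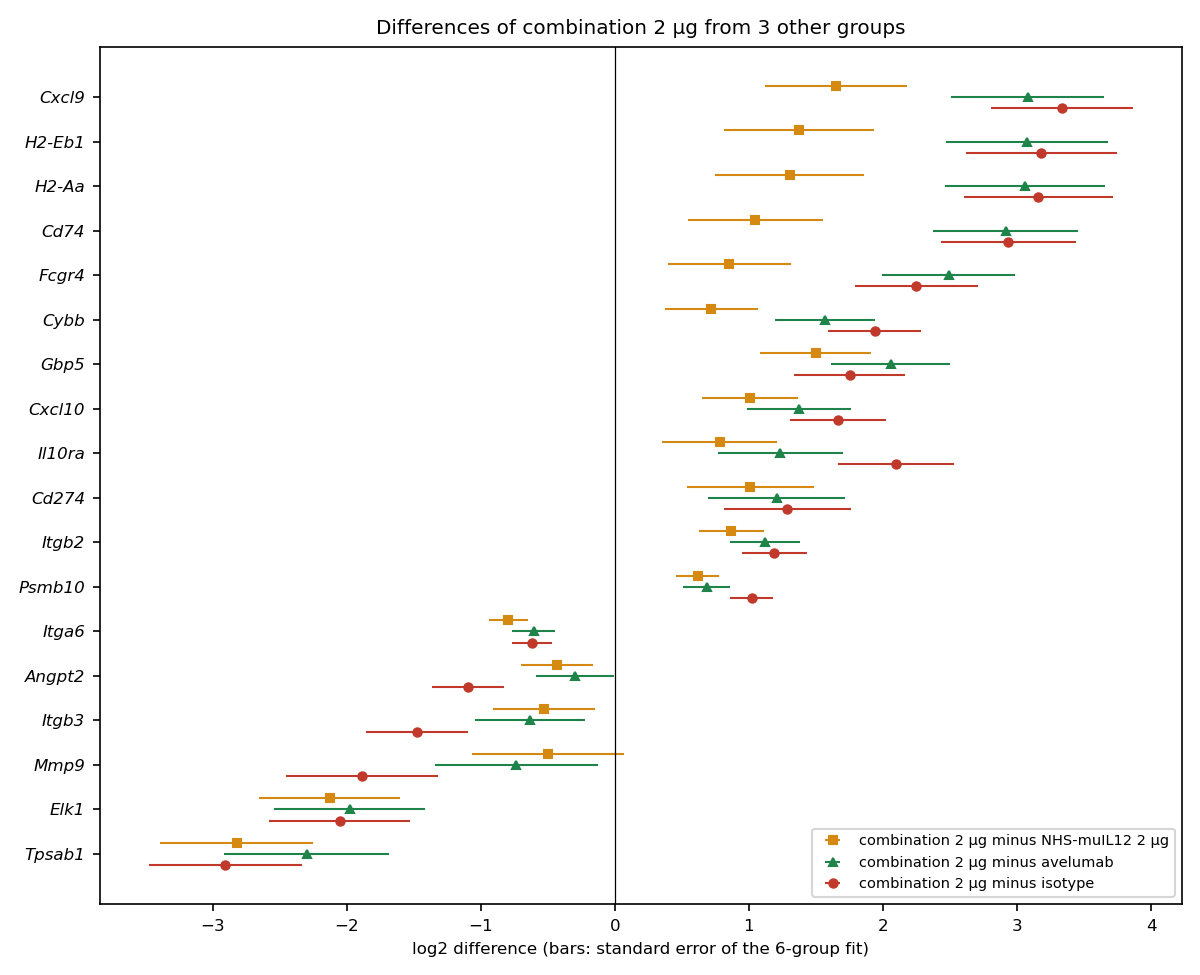
Log2 differences of combination 2 µg from NHS-muIL12 2 µg alone (squares), avelumab alone (triangles) and isotype (circles) for 18 genes, with bars for the standard error of the 6-group fit. For the class II genes and Cxcl9 the differences from avelumab and isotype lie between 2.92 and 3.34 and those from NHS-muIL12 2 µg between 1.05 and 1.65.

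The interaction at 2 µg asks whether both agents together differ from the sum of their single effects. It passed for 0 of 750 genes (0%) in limma, and the smallest adjusted p was 0.804. An unadjusted p under 0.05 was seen in 37 genes, near the share that such a threshold passes when no gene differs. The genes of smallest p were Itga6, with an interaction of -0.78 ± 0.22, and Il15ra, a receptor chain that presents interleukin-15, with 1.45 ± 0.42. For Cxcl9 the interaction was 1.39 ± 0.78 with a 95% interval of -0.24 to 3.03, and for Gbp5 1.81 ± 0.61 with 0.53 to 3.08. The interval of Cxcl9 includes 0 and that of Gbp5 does not, before any adjustment over genes. Neither gene passed after adjustment, and neither was named by the rule for this comparison, so no interaction is read from them.

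No gene separated the lower from the higher NHS-muIL12 dose under avelumab past the threshold. Combination 2 µg and combination 10 µg differed in 0 of 750 genes (0%) in limma, and the smallest adjusted p was 0.320. An unadjusted p under 0.05 was seen in 35 genes, again near the share that such a threshold passes when no gene differs. Cxcl9 averaged 800 ± 455 at 2 µg and 963 ± 768 at 10 µg (SD, n = 4 each), a difference of -0.17 ± 0.53 (95% interval -1.29 to 0.94). Cd274 averaged 507 ± 245 at 2 µg and 851 ± 698 at 10 µg, a difference of -0.56 ± 0.47 (95% interval -1.56 to 0.43). The genes of smallest p were Elk1, with a difference of -2.11 ± 0.52, and Arg1, the arginase of myeloid cells, which averaged 1014 ± 267 at 2 µg and 2348 ± 956 at 10 µg (SD, n = 4 each). Neither passed, with an adjusted p of 0.32 for Arg1.

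**Figure D5:**
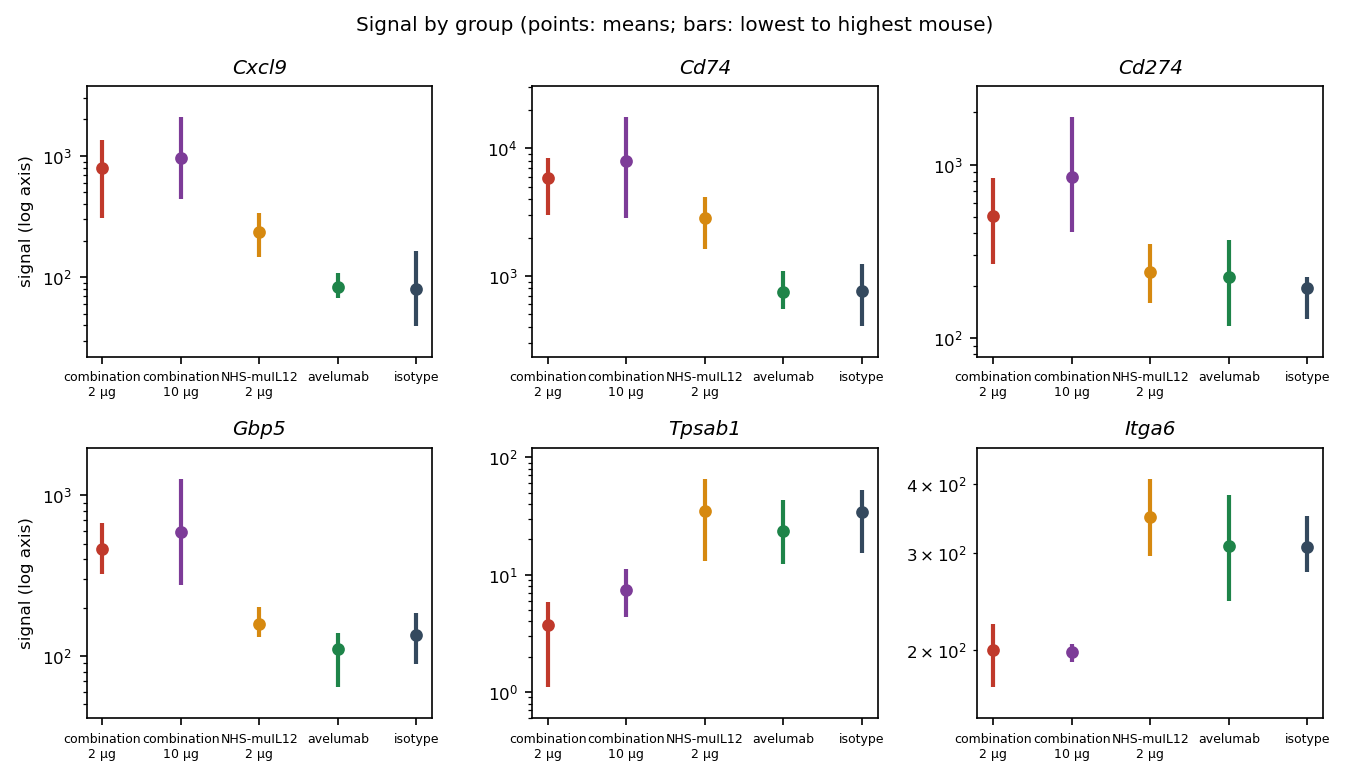
Signal (log axis) of 6 genes in combination 2 µg, combination 10 µg, NHS-muIL12 2 µg, avelumab and isotype tumours, with points at the means and bars from the lowest to the highest mouse. Among the groups drawn, which leave out NHS-muIL12 10 µg alone, Cxcl9, Cd74 and Gbp5 have their highest means in both combinations, with means of 800 and 963 for Cxcl9, and Tpsab1 and Itga6 are lowest there.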

How the data were processed

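RNA of EMT-6 tumours from 22 mice was measured with NanoString probes. The authors deposited 1 table of signal for 770 genes on a linear scale, made by a standard protocol per the labels. Within each library every checked value above 0 lay within 0.02 of an equally spaced step, with a floor at 0. Bright values were left out of this check. The deposited signals were thus taken as counts less a background, multiplied by a factor per library. No count model was fitted, because in most libraries the steps did not start at 0. The sources used here name neither software nor background or scaling method. Depth, read from the steps, was 197653 to 489516 counts above background in the 8 tumours, and only the spread between mice gives the precision of a value. The labels and series text describe mice as separate, without stating separate cages or days.

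Signals were analysed as log2(signal + 1) with no filter in R 4.3.3 with limma 3.58.1 (statmod 1.5.0), with 1 mean for each of 6 groups, 16 residual degrees of freedom and default eBayes. Tests were two-sided with Benjamini-Hochberg adjustment over 750 genes in each comparison and a threshold of 0.05. Folds are the log2 changes put back on a linear scale. The fit was tested on simulated data. Gene names matched current symbols (756), synonyms (8) or neither (6). The groups, the 30 gene lists and the tests were chosen with earlier results of these data known, so patterns in the lists are not independent support.

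Named genes were the 20 largest rises and all falls past the threshold, the 3 members at most of a list that moved furthest either way, and genes of the interleukin-12 and PD-1 pathways. Elsewhere they were at most 5 called genes in each direction, or, with none called, the 2 of smallest p. Further genes named beside them were chosen after their values were seen. Alternatives were log2(signal + 10), a mean of at least 50, quantile normalization, centring on medians or on housekeeping genes, library weights, a replicate block, only the groups compared, and mice left out singly or 4 libraries together. The combination of a mean of at least 50 with the 4 libraries left out was added after seeing the data. Replicate numbers are shared between groups. Deviations of same-numbered combination and isotype mice from their group means correlated across genes at -0.14, -0.21, -0.25 and 0.07, so the numbers were not taken to pair mice. A few genes are not reported here.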

Additional observations from a re-analysis of the deposited data

Results flagged for a closer look

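In groups of 4 mice, the highest or lowest value of each named gene was set against the other 3 by Dixon's ratio at the 95% critical value. Of 268 groups of values, 17 stood out, and those of the 268 with 4 equal values could not be tested. Chance alone gives about 1 in 20 for normally distributed values, which groups with 3 values at 0 are not. Among genes past the threshold, Slamf7 in combination tumour 2 read 12.3, against 78.4 to 80.7 in the other 3. Mmp9 in isotype tumour 3 read 1605, against 640.5 to 699, and Itgb3 in isotype tumour 4 read 49.1, against 151 to 175. Ly9 in isotype tumour 1 read 12.9, against 15.1 to 15.6, and Slamf6 in isotype tumour 2 read 3.50, with 0 in the other 3. Cd274, which did not pass, was lowest in isotype tumour 4, at 129 against 206 to 225.

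The remaining values belong to dim genes that did not pass. Chil3 in combination tumour 2 read 2.94, against 12.5 to 13.5, and Pycard in isotype tumour 3 read 0, against 11.0 to 17.4. In the others a single tumour was above 0 and the other 3 of its group at 0. Combination tumour 1 had Il23a at 1.89, tumour 2 Klrb1c at 0.867, and tumour 3 Tnfrsf17 and Fcer2a at 0.226 each. Combination tumour 4 had H2-Q1 at 4.96, Klra3 and Pycard at 1.56 each and Lamp3 at 0.706. Isotype tumour 2 had Cxcl13 at 15.1. The cause of these values was not tested.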

How the results depend on the processing

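Against isotype, 71 genes became 128 with quantile normalization, 308 with library weights (134 higher, 174 lower), 16 when the fit held the 2 groups alone, and 0 without the 4 libraries that are high at the dim end, also when a mean of at least 50 was required. Leaving out 1 mouse gave 16 to 140. Against avelumab, 81 became 217 with library weights, 47 without the 4 libraries, 0 with only the groups compared and 0 to 95 without 1 mouse. Against NHS-muIL12 2 µg, 2 became 1 with log2(signal + 10) or a mean of at least 50, 50 with library weights, 0 with a replicate block, with only the groups compared or without the 4 libraries (also when a mean of at least 50 was required), and 0 to 1 without 1 mouse. The comparison with combination 10 µg and the interaction gave 0 under every alternative run. The replicate block gave 62 genes against isotype and 56 against avelumab, and 60 of the 71 genes kept their call under it. The numbers share no known animal, cage or day. Leaving out libraries or groups leaves fewer mice, and beyond that the causes were not tested.

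Of single genes not past the threshold, these changed sign without the 4 libraries: H2-Q1 (0.64), Cd1d2 (0.78), Pdcd1 (1.13), Pdcd1lg2 (1.79), Ido1 (0.21), Cd2 (0.95), Tnfrsf18 (0.15), Chil3 (0.49), Cdk1 (0.21), Hras (1.20), Stat4 (0.68), Tbx21 (1.56) and Cd4 (1.34). Quantile normalization turned Hras (0.056), Stat4 (0.94), Tbx21 (0.024) and Cd4 (0.63), and library weights turned Gzmb (-0.13) and Prf1 (-0.65). None of the 71 called genes changed sign under any alternative run.
Leaving out 1 mouse moved Pdcd1lg2 between -1.84 and 0.41, Stat4 between -0.70 and 0.32, Tbx21 between -1.81 and 0.18, Cd4 between -1.38 and 0.82, Gzmb between -0.17 and 0.72 and Prf1 between -0.35 and 0.88.

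Groups have 3 or 4 mice, and 2 isotype libraries are high at the dim end. For genes with a mean signal under 50, the low end of each library limits what can be read, and the simulated data do not include it.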
